A study of Mus musculus with 2 samples.

Results

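A set of 10 of the 32285 genes in the deposited count matrices was described in the macrophages of a young mouse forebrain: Apoe, Spp1, Lpl, Gpnmb, Atp6v0d2, Cd68, Ctsb, Ctsd, Trem2 and Itgax. They were chosen by name as lipid handling and lysosome genes of phagocytic microglia, and all 10 of 10 were found among the gene symbols of both libraries. The level of each was read in barcodes with high C1qa, C1qb and C1qc, the complement genes that microglia and the macrophages of the brain borders share. These barcodes were split by P2ry12 and Tmem119 against Pf4 and Mrc1, and by the division genes Mki67 and Top2a.

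Microglia are the resident macrophages of the brain parenchyma, and in the first postnatal week some of them in and near the developing white matter engulf dying cells and cell debris. A macrophage that has taken up lipid-rich debris breaks it down in acidified lysosomes with cathepsins and moves the freed lipid on lipoprotein particles. Microglia of the early postnatal white matter and microglia near plaques or damaged myelin are known to express several of the genes described here, while resting adult microglia hold little Spp1, Lpl, Gpnmb or Itgax. Macrophages of the meninges and of the perivascular spaces are a separate population that also digests debris, with its own set of scavenger receptors.

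The data were 2 droplet single-cell RNA libraries (10x Single Cell 3' v3) of C57BL/6J mice at postnatal day 8, labelled WT-CNO and DREADD-CNO. Every pup had received pAAV-hSyn-DIO-hM4D(Gi)-mCherry at postnatal day 0, a virus for an inhibitory designer receptor that needs Cre recombinase and a neuronal promoter to be made, and every pup had been given its ligand clozapine-N-oxide by mouth 2 times a day from day 2 to day 8. The WT-CNO library held the pooled cortex and corpus callosum of 2 wildtype pups and the DREADD-CNO library those of 3 NexCre+/- pups, whose genotype label was Neurod6tm1(cre)Kan and whose Cre is driven in excitatory forebrain neurons. Receptor-driven silencing, the Cre allele, the pups and the library therefore cannot be told apart, and controls without virus or without clozapine-N-oxide are not part of the comparison. Cells had been freed with papain and selected with magnetic beads for PDGFRα and O4, surface markers of the oligodendrocyte lineage, and were labelled oligodendrocytes. The macrophages were thus cells carried through a selection for other cells.

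With 1 library a group there was no replicate and no test. Levels are summed UMIs (unique molecular identifiers, which count captured transcripts) of a group of barcodes per 1000000 UMIs of that group, written CPM. A gene was called higher or lower where the ratio of its level was at least 1.5, its exact 95% interval did not include 1, the higher side had at least 20 CPM and both sides together had at least 50 UMIs. Comparisons of barcode groups within a library had to meet this in both libraries. All intervals cover counting error only, not the spread between barcodes, pups or dissections. A gene held mostly by few barcodes can therefore have a narrow interval.

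Promoter sequence shows what DNA stands just before 4 of the genes whose levels differed most between barcode groups or that carried the main lysosomal readout. RefSeq windows on GRCm38.p6 from 250 bases before to 50 bases after the annotated start were at hand for 7 of the 10 genes, 10 windows in all since Spp1 had 2 and Apoe 3; Lpl, Ctsb and Atp6v0d2 had none. They were searched on both strands for PU.1 (GAGGAAGT), the macrophage lineage factor, for AP-1 (TGANTCA), for the E-box (CACGTG) that lysosomal gene regulators such as TFEB bind, and for the M-box (TCATGTG) of MITF. The capitals below mark the letters matched, and each line runs 5′ to 3′ on the gene's own strand. The Spp1 window shown, the one with a match, was chr5:104434861-104435160 on the plus strand with the PU.1 letters, the Gpnmb window chr6:49036268-49036567 on the plus strand with the AP-1 letters, the Itgax window chr7:128129300-128129599 on the plus strand with the AP-1 letters, and the Ctsd window chr7:142387778-142388077 on the minus strand with 2 E-boxes.
Spp1: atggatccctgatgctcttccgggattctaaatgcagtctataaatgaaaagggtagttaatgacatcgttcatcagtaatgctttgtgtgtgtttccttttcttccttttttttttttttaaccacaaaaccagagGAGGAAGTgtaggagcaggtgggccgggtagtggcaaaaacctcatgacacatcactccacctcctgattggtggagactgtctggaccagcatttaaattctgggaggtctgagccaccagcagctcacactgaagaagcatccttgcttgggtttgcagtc
Gpnmb: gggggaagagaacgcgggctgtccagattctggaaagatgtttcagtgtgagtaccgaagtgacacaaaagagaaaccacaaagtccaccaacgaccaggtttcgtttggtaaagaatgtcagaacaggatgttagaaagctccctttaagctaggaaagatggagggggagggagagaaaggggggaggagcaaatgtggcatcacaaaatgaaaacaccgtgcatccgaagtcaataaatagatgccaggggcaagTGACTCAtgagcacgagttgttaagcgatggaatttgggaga
Itgax: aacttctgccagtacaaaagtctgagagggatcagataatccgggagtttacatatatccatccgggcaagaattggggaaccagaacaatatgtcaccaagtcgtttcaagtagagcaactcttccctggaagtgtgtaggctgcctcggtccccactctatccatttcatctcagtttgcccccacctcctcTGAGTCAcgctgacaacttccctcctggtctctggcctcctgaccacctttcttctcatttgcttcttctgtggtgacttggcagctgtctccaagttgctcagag
Ctsd: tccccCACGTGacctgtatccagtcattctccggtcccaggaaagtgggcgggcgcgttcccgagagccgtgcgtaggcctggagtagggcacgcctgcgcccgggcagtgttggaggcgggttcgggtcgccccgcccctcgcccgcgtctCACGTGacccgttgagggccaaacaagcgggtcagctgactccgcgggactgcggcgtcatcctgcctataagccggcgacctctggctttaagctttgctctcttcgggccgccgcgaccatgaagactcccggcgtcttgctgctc
The PU.1 letters were in 1 of the 10 windows, the first of the 2 of Spp1 and not the second, and in 3.20% of all 32851 RefSeq mouse promoter windows of this length. AP-1 letters were in 4 of the 10 windows, those of Cd68, Gpnmb, Itgax and Trem2, and in 7.81% of all windows. The E-box was in 1 of the 10, that of Ctsd, and in 7.15% of all windows, and the M-box was in none of the 10 and in 3.77% of all windows. A match is a description of the letters and not a bound site.

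The WT-CNO library held 4272 and the DREADD-CNO library 4986 barcodes with at least 500 genes and at most 10% mitochondrial UMIs, with medians of 12101.5 and 17627 UMIs. Of these, 467 (10.9%) and 437 (8.76%) were high in C1q. The 2 libraries shared 12 barcode sequences, none of them high in C1q in both libraries. Among the C1q-high barcodes, 270 held only female and 53 only male transcripts in WT-CNO, against 80 and 197 in DREADD-CNO, so the sex mix of the pools differed.

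The split by P2ry12 and Tmem119, receptors and surface proteins of parenchymal microglia, against Pf4 and Mrc1, a chemokine and a mannose receptor used to mark border macrophages, did not give 2 clean classes at this age. The P2ry12/Tmem119 gate (at least 2 UMIs and at least 2 times the other pair) held 130 of the C1q-high barcodes in WT-CNO (27.8%) and 86 in DREADD-CNO (19.7%). The Pf4/Mrc1 gate, defined in the reverse way, held 206 (44.1%) and 240 (54.9%), and 131 and 111 lay between the gates. Many barcodes lay near the line: within a factor of 2 of it were 93 and 95 on the P2ry12/Tmem119 side, and 71 and 40 on the Pf4/Mrc1 side.

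Markers that the split did not use divided the Pf4/Mrc1 gate. When UMIs of 8 other microglia markers were set against those of 8 other border macrophage markers, 71 barcodes of the gate in WT-CNO (34.5%) and 41 in DREADD-CNO (17.1%) held a majority of the microglia markers. The non-dividing ones among them (54 and 26) had 198 and 230 CPM of Siglech, a lectin of microglia, and 12.4 and 0 of Lyve1, a hyaluronan receptor of border macrophages, where no UMI was counted in DREADD-CNO. Their border-marker counterparts in the gate had 6.98 and 8.96 of Siglech and 3100 and 2853 of Lyve1. Both genes were among the markers that sorted these barcodes, so the direction of these differences follows in part from the sorting. Fcrls, another of the microglia markers, was found in both kinds, at 1651 and 1550 against 934 and 732 CPM. As it held barcodes of both kinds, the Pf4/Mrc1 gate is reported by its genes and not as a cell type. The majority of the other markers, a split chosen after the data were seen, gave 332 microglia-marker and 134 border-marker barcodes in WT-CNO, and 237 and 197 in DREADD-CNO. Other markers of both kinds within a factor of 2 of each other were found in 20 and 16 barcodes.

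The genes were far higher in C1q-high barcodes than in precursors of oligodendrocytes. The comparison barcodes were oligodendrocyte precursors with almost no C1q (2741 and 2544 barcodes, here OPC-like, with at least 3 UMIs of Pdgfra and Cspg4 and fewer than 3 of Mag and Mog). Over them, 9 of the 9 genes with enough UMIs in both libraries were higher in C1q-high barcodes, where 25.0% of all 8672 genes compared were; Atp6v0d2 was the gene without enough UMIs. Spp1 had a ratio of 886 in WT-CNO and of 362 in DREADD-CNO, and the ratios were 731 and 997 for Trem2, and 42.9 and 22.9 for Apoe. Apoe, Ctsb and Ctsd were the genes with a clear level in OPC-like barcodes. A UMI of Apoe was found in 85.3% and 88.2% of them, and in 44.0% and 49.3% after thinning each barcode to 1987 UMIs. For Cd68, Spp1, Lpl, Gpnmb, Trem2 and Itgax the thinned OPC-like share was at most 0.771%. Whether the UMIs in OPC-like barcodes came from free RNA or from expression in these cells was not tested. Median depths before thinning were 11266 and 16315.5 UMIs in OPC-like against 16435 and 16052 in C1q-high barcodes.

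Apoe (ENSMUSG00000002985) encodes apolipoprotein E, the protein that carries lipid out of glial cells and macrophages. Here and below, levels and shares of C1q-high groups are of non-dividing barcodes unless said otherwise, with WT-CNO before DREADD-CNO. The P2ry12/Tmem119 gate held 9775 CPM of Apoe in WT-CNO and 6670 in DREADD-CNO. It was 15327 and 7803 between the gates, and 21185 and 19544 in the microglia-marker barcodes of the Pf4/Mrc1 gate. Apoe was thus present in every class of macrophage and lowest in the barcodes richest in P2ry12 and Tmem119. In border-marker barcodes it was 21131 and 18715, against 326 and 494 in OPC-like barcodes. The median microglia-marker barcode held 92.3 and 67.0 Apoe UMIs per 10000, and the median border-marker barcode 217 and 209.

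Lpl (ENSMUSG00000015568) encodes lipoprotein lipase, which splits the triglycerides of lipoproteins. Its level was 413 and 435 CPM in the P2ry12/Tmem119 gate, 653 and 604 between the gates, and 673 and 816 in the microglia-marker barcodes of the Pf4/Mrc1 gate. In border-marker barcodes it was 45.7 and 23.0. Lpl was spread over most microglia-marker barcodes: 70.0% and 68.8% held a UMI of it, or 44.7% and 48.2% after thinning. In border-marker barcodes these shares were 11.0% and 9.89%, or 5.22% and 1.95% after thinning.

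Spp1 (ENSMUSG00000029304) encodes osteopontin, a secreted phosphoprotein that binds integrins. Its level was 2582 and 994 CPM in the P2ry12/Tmem119 gate, 4056 and 3671 between the gates, and 12764 and 12329 in the microglia-marker barcodes of the Pf4/Mrc1 gate. In border-marker barcodes it was 445 and 300. The median microglia-marker barcode held none. At the 90th percentile it held 145 UMIs per 10000 in WT-CNO and 117 in DREADD-CNO, and at most 790 and 683. The 5 barcodes richest in Spp1 carried 38.4% and 51.9% of all its UMIs among the 257 and 157 non-dividing microglia-marker barcodes, so its summed level rests on few barcodes.

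Trem2 (ENSMUSG00000023992) encodes the lipid-sensing receptor that signals through Tyrobp. Its level was 1640 and 1471 CPM in the P2ry12/Tmem119 gate, 1730 and 1292 between the gates, and 1677 and 2007 in the microglia-marker barcodes of the Pf4/Mrc1 gate. No call was made for Trem2 between these groups. In border-marker barcodes it was 602 and 536. A UMI of Trem2 was found in 96.5% and 98.7% of microglia-marker and in 88.2% and 86.8% of border-marker barcodes.

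Itgax (ENSMUSG00000030789) encodes the integrin CD11c, which marks a subset of white matter microglia. Its level was low, at 51.7 and 50.9 CPM in the P2ry12/Tmem119 gate, 76.8 and 33.1 between the gates, and 141 and 72.6 in the microglia-marker barcodes of the Pf4/Mrc1 gate. In border-marker barcodes 3 and 8 UMIs were counted, or 1.90 and 3.41 CPM. A UMI was found in 20.6% and 17.8% of microglia-marker barcodes, and in 7.08% and 5.67% after thinning.

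**Figure D1:**
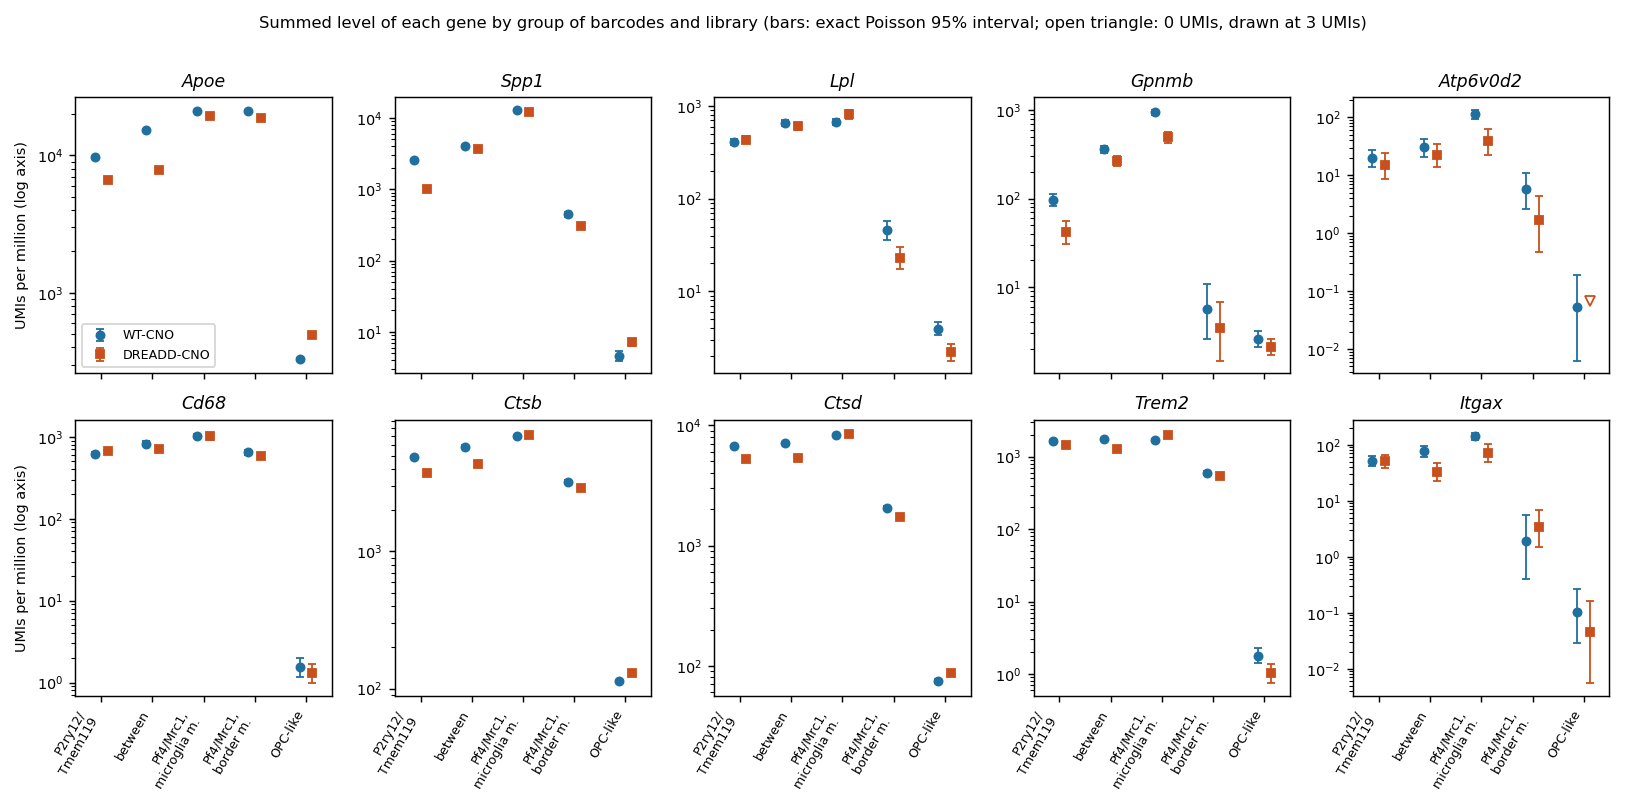
Summed CPM (log axis, a scale of its own for each gene) of the 10 genes in 4 groups of non-dividing C1q-high barcodes and in OPC-like barcodes, with the exact Poisson 95% interval of counting error. Circles are WT-CNO and squares DREADD-CNO; "microglia m." and "border m." are the microglia-marker and border-marker barcodes of the Pf4/Mrc1 gate, and the open triangle stands for 0 UMIs drawn at 3. Spp1 goes from 2582 and 994 in the P2ry12/Tmem119 gate to 12764 and 12329 in the microglia-marker barcodes of the Pf4/Mrc1 gate, and to 445 and 300 in border-marker barcodes.

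Gpnmb (ENSMUSG00000029816) encodes a glycoprotein of late endosomes and lysosomes that is made by macrophages full of lipid. Its level was 96.6 and 41.6 CPM in the P2ry12/Tmem119 gate, 360 and 267 between the gates, and 946 and 494 in the microglia-marker barcodes of the Pf4/Mrc1 gate. Like Spp1 it was held by a minority, with a UMI in 33.1% and 26.1% of microglia-marker barcodes, or 23.5% and 15.6% after thinning. Border-marker barcodes had 9 and 8 UMIs of it in all, or 5.71 and 3.41 CPM.

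Atp6v0d2 (ENSMUSG00000028238) encodes the d2 subunit of the proton pump that acidifies lysosomes, an isoform typical of osteoclasts and some macrophages. It had the fewest UMIs of the 10 genes, with levels of 19.9 and 14.8 CPM in the P2ry12/Tmem119 gate, 30.4 and 22.4 between the gates, and 113 and 38.7 in the microglia-marker barcodes of the Pf4/Mrc1 gate. A UMI was found in 15.2% and 7.01% of microglia-marker barcodes, and in 4.87% and 2.13% after thinning. In OPC-like barcodes the level was 0.0521 in WT-CNO, and no UMI was counted in DREADD-CNO, where 3 UMIs would be 0.0682 CPM.

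The genes of the general lysosome were held by nearly all barcodes. Cd68 (ENSMUSG00000018774), a glycosylated membrane protein of macrophage lysosomes, was at 622 and 662 CPM in the P2ry12/Tmem119 gate, 1030 and 1022 in the microglia-marker barcodes of the Pf4/Mrc1 gate, and 646 and 588 in border-marker barcodes. Ctsb (ENSMUSG00000021939), a cysteine protease, was at 4903 and 3718, 6924 and 7089, and 3225 and 2883 in the same groups. Ctsd (ENSMUSG00000007891), an aspartic protease, was at 6698 and 5198, 8321 and 8404, and 2066 and 1733. These 3 varied less over the microglial groups than Spp1 and Gpnmb did. Cd68 had a UMI in 87.9% and 89.8% of microglia-marker barcodes, Ctsb in 96.5% and 99.4%, and Ctsd in 98.1% and 96.8%. The thinned share in OPC-like barcodes was 19.0% and 21.1% for Ctsb and 14.4% and 14.8% for Ctsd, so a UMI of either does not mark a macrophage.

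**Figure D2:**
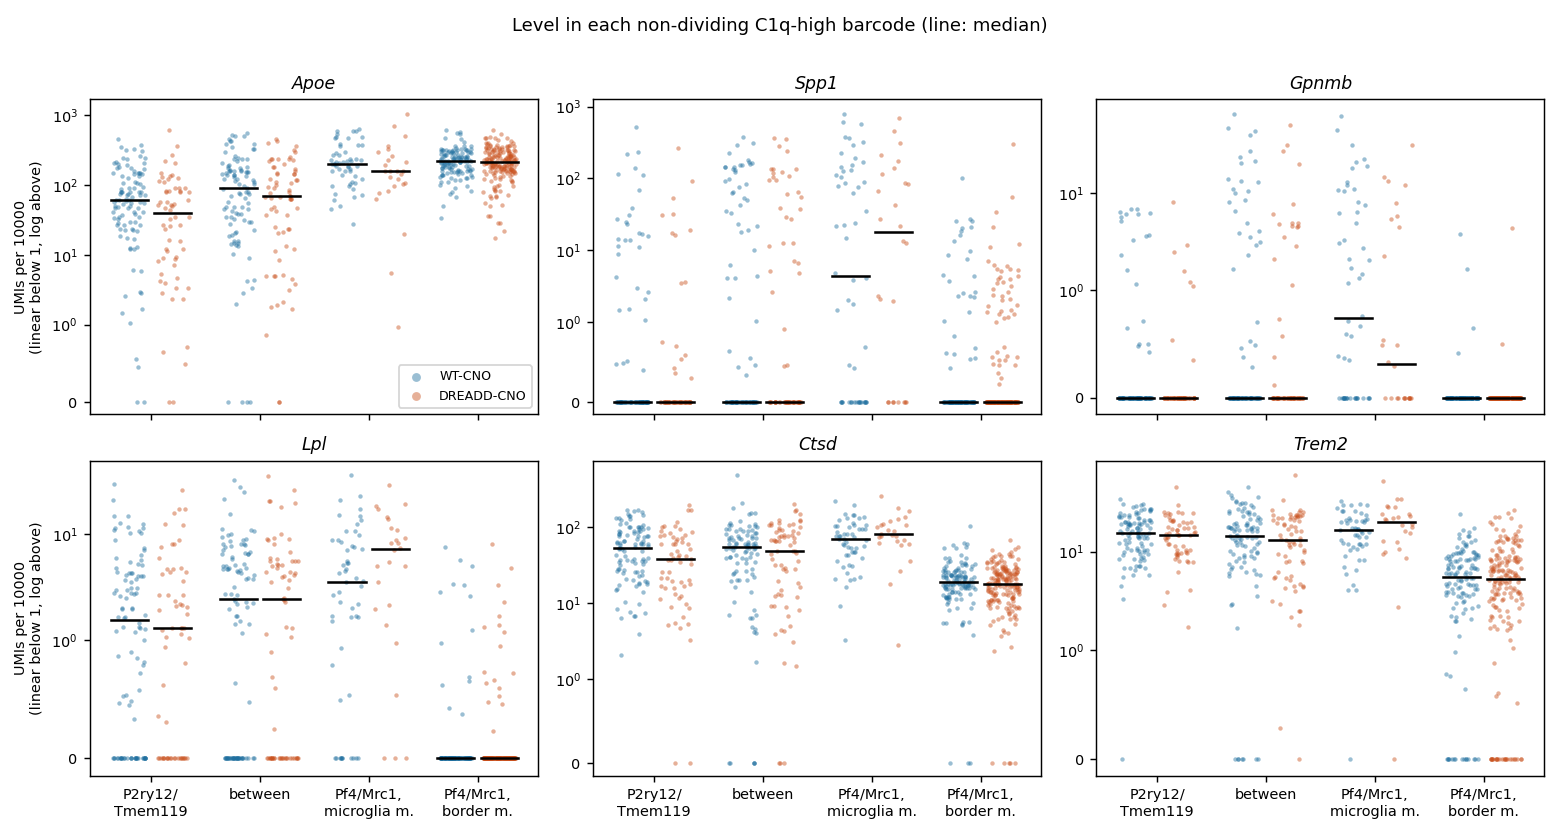
UMIs per 10000 of 6 of the genes in each non-dividing C1q-high barcode (linear below 1, log above), by group and library, with a line at the median. Each point is 1 barcode; "microglia m." and "border m." are the 2 kinds of barcode in the Pf4/Mrc1 gate. Apoe, Ctsd and Trem2 are found in most barcodes of each group, while Spp1 and Gpnmb have a median of 0 in the P2ry12/Tmem119 gate with a tail of barcodes far above it.

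Most of these genes were lower in border-marker than in microglia-marker barcodes, though Apoe, Cd68, Ctsb, Ctsd and Trem2 were plainly present in both. Over microglia-marker barcodes, 8 of the 10 genes were lower in them in both libraries and none was higher, while 9.04% of the 6761 genes compared were lower and 12.3% higher. Spp1 was 13.2-fold lower in WT-CNO and 13.1-fold lower in DREADD-CNO, Lpl 12.1-fold and 24.4-fold, and Gpnmb 71.6-fold (interval 37.6 to 157) and 59.6-fold (30.0 to 139). Atp6v0d2, Itgax, Ctsd, Trem2 and Ctsb were also lower, down to ratios of 0.563 and 0.639 for Ctsb. Ctsd was at ratios of 0.284 and 0.300, and Trem2 at 0.359 in both. The 2 genes not called lower were Apoe, at ratios of 1.45 and 2.02, and Cd68, at 0.814 and 0.798. The median log2 ratio was -2.58 over the 10 genes and 0.03 over all genes compared. Spp1 in border-marker barcodes came mostly from 1 barcode in each library, which held at least 50% of its UMIs there.

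Other genes of the same pathways did not follow as a block. Of 16 proton pump subunits with enough UMIs, 1 was higher in border-marker barcodes (Atp6v0a1) and 1 lower (Tcirg1), with a median log2 ratio of 0.13. Among 25 other lysosomal genes 2 were higher and 5 lower, with a median of -0.16 and lower values for 18 of them. Among 19 other lipid genes 3 were higher and 6 lower. The scavenger receptor Cd36, which takes up oxidised lipoproteins, was the clearest of those higher, at 567 CPM in border-marker against 22.5 in microglia-marker barcodes of WT-CNO, and 507 against 3.30 in DREADD-CNO. The proton pump and lysosomal medians were near that of all genes. Yet 5 of 25 lysosomal and 6 of 19 lipid genes were called lower, where 9.04% of all genes were. Of 16 further disease-associated microglia genes 6 were lower and 2 higher, with a median of -0.57.

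The fixed Pf4/Mrc1 gate as a whole, a mixture of both kinds, gave another picture. Over the P2ry12/Tmem119 gate, 3 of 9 genes with enough UMIs were higher (Apoe at ratios of 2.16 and 2.82, Spp1 at 2.16 and 2.11, Gpnmb at 4.11 and 1.85) and 1 was lower (Trem2 at 0.640 and 0.514), where 9.38% and 6.90% of 6698 genes were. Atp6v0d2 was the gene without enough UMIs. With at most 5% mitochondrial UMIs, Spp1 in WT-CNO turned to a ratio of 0.833 and 1 gene was called higher. The level of the mixture moves with the share of microglia-marker barcodes, 34.5% and 17.1% of the gate.

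Within barcodes of microglial markers, Apoe, Spp1, Lpl, Gpnmb and Cd68 were higher where P2ry12 and Tmem119 were outweighed by Pf4 and Mrc1. Over the P2ry12/Tmem119 gate, 5 of 9 genes with enough UMIs were higher in the microglia-marker barcodes of the Pf4/Mrc1 gate and none was lower, where 2.57% of 4743 genes were higher and 5.61% lower. Spp1 had ratios of 4.94 (interval 4.78 to 5.11) and 12.4 (11.6 to 13.3), Gpnmb 9.79 (8.32 to 11.6) and 11.9 (8.55 to 16.8), Apoe 2.17 and 2.93, Lpl 1.63 and 1.88, and Cd68 1.66 and 1.54. Ctsb (1.41 and 1.91), Ctsd (1.24 and 1.62), Trem2 (1.02 and 1.36) and Itgax (2.73 and 1.43) were not called in both libraries. Atp6v0d2 had too few UMIs, with 16 against 16 in DREADD-CNO and a ratio of 5.67 in WT-CNO. The median log2 ratio was 0.81 over the genes compared and -0.14 over all genes.

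Border macrophage genes were lower in these barcodes than in border-marker barcodes, though mostly not at 0. Mrc1 was at 1209 and 746 CPM there, Ms4a7 at 275 and 160, F13a1 at 27.5 and 14.5, and Cd163 at 1.78 and 0. Stab1 was at 901 and 881, against 252 and 268 in the P2ry12/Tmem119 gate. Mrc1 had formed the gate and the other 4 genes had sorted its barcodes, so these levels follow in part from the sorting. The summed level of 10 border macrophage markers was 536 and 578 CPM in the P2ry12/Tmem119 gate, 3036 and 2295 in these barcodes, and 24252 and 21275 in border-marker barcodes. The part of mixed droplets in these levels was not tested.

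Barcodes between the gates held levels of Apoe, Lpl, Spp1, Gpnmb and Atp6v0d2 between those of the P2ry12/Tmem119 gate and the Pf4/Mrc1 gate's microglia-marker barcodes. In them, Trem2 in both libraries and Itgax in DREADD-CNO lay outside that range. Over the P2ry12/Tmem119 gate, 2 of 9 genes were higher (Spp1 at ratios of 1.57 and 3.69, Gpnmb at 3.72 and 6.41) and none lower, where 0.548% and 0.668% of 5840 genes were. Lpl had ratios of 1.58 and 1.39, Apoe 1.57 and 1.17, and Ctsd 1.06 and 1.03. These barcodes were shallow, with medians of 4873 and 4875.5 UMIs against 17578 and 15891.5 in the P2ry12/Tmem119 gate. A barcode with under 2 UMIs of the 4 genes lies between the gates by construction, and 37 and 20 of the C1q-high barcodes held none of them.

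Genes of related lists, none of them among the 10, were compared between the same groups, the microglia-marker barcodes of the Pf4/Mrc1 gate and the P2ry12/Tmem119 gate. Of 15 further genes of the disease-associated microglia programme, 8 were higher, among them Lilrb4a (6.61 and 2.71), an inhibitory receptor, and Vim (4.41 and 3.75), an intermediate filament; the median log2 ratio was 0.80. Of 14 other lipid genes 5 were higher and 1 lower, with the fatty acid binding proteins Fabp5 (2.88 and 2.63) and Fabp3 (1.74 and 3.99) among the higher. Of 25 other lysosomal genes 2 were higher, among them the tetraspanin Cd63 (1.51 and 1.82), and of 16 proton pump subunits none was called in either direction; their medians were 0.47 and 0.25. Of 14 homeostatic microglia genes 8 were lower, with a median of -1.01, but P2ry12 and Tmem119 formed the gate and 8 others, such as Fcrls (1.01 and 1.10), were among the markers of the second split. Of 16 other phagocytosis genes 4 were higher and 1 lower, but Mrc1 and Stab1 among the higher had been used to sort the barcodes.

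Spp1, Lpl, Gpnmb, Atp6v0d2 and Itgax, the genes held by only part of the microglia-marker barcodes, were found together in some of them. The counts are given without the shares that the frequency of each gene alone would give. After thinning, and with dividing barcodes included here and in the next 2 paragraphs, 44 of 300 microglia-marker barcodes in WT-CNO (14.7%, exact interval 10.9 to 19.2%) and 27 of 220 in DREADD-CNO (12.3%, 8.25 to 17.4%) held UMIs of at least 3 of the 5. The 2 intervals overlap. None of the 5 was found in 120 (40.0%) and 89 (40.5%). Among border-marker barcodes, 1 of 122 and 0 of 169 held at least 3, and the count of 0 allows a share of up to 2.16%. Without thinning the shares of microglia-marker barcodes were 32.8% and 24.9%, and of border-marker barcodes 0.746% and 1.52%.

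**Figure D3:**
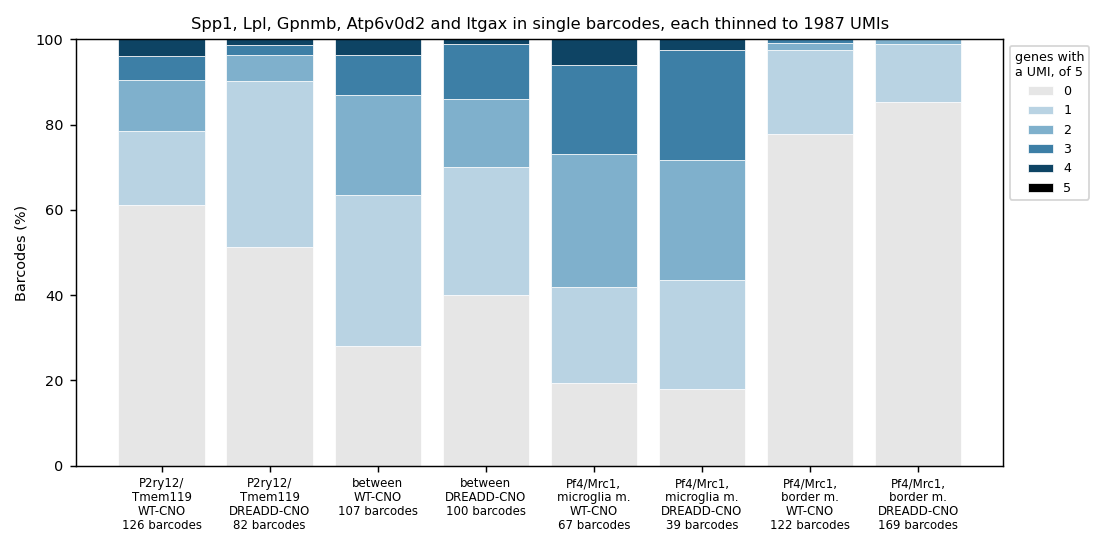
Percent of barcodes (dividing ones included) with UMIs of 0 to 5 of the genes Spp1, Lpl, Gpnmb, Atp6v0d2 and Itgax, after thinning each to 1987 UMIs, in 4 groups of C1q-high barcodes of each library. Darker blocks stand for more genes. At least 3 genes were found in 9.52% and 3.66% of the P2ry12/Tmem119 gate, 26.9% and 28.2% of the microglia-marker barcodes of the Pf4/Mrc1 gate, and 0.820% and 0% of the border-marker barcodes.

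The sharing was uneven. Of the microglia-marker barcodes with a UMI of Gpnmb, 52 of 62 in WT-CNO (83.9%) and 29 of 35 in DREADD-CNO (82.9%) also held Spp1, while 47.3% and 41.4% of those with Spp1 held Gpnmb. Lpl was found in 65.5% and 64.3% of the barcodes with Spp1, and Spp1 in 52.6% and 43.7% of those with Lpl. All 13 WT-CNO and all 3 DREADD-CNO barcodes with Atp6v0d2 held Spp1. Gpnmb and Atp6v0d2 were thus mostly found inside the set of barcodes with Spp1, and Lpl lay across it.

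Levels of the other 5 genes went up with the number of these genes detected. From microglia-marker barcodes with none of the 5 to those with 3 or more, Apoe went from 6731 to 17205 CPM in WT-CNO and from 3145 to 16716 in DREADD-CNO. Ctsd went from 4059 to 10099 and from 2177 to 10480, Ctsb from 3232 to 8004 and from 1827 to 8271, Cd68 from 495 to 1170 and from 410 to 1015, and Trem2 from 1174 to 1903 and from 830 to 2070. Of 18 measured genes of the disease-associated microglia list 16 were at least 1.5 times higher and 1 lower at the last step than at the first in WT-CNO, and 15 of 17 were higher and none lower in DREADD-CNO. The higher ones included Fabp5, a fatty acid binding protein (76.0 to 2434 and 142 to 2153), Igf1, a growth factor (111 to 1472 and 79.7 to 1082), Cd9, a tetraspanin (899 to 3259 and 898 to 3825), and Lgals3, a galectin (5.58 to 452 and 12.1 to 142). Of 14 homeostatic genes 11 were at least 1.5 times lower in WT-CNO, while 7 were lower and 2 higher in DREADD-CNO. No share of all genes was taken along these steps, so these list counts have no background to be set against. P2ry12 went from 1238 to 233 and from 884 to 227, and Siglech from 619 to 129 and from 461 to 116. Fcrls was at 1602 to 1522 and 1109 to 1879. RNA of other cells moved along the same steps, with 4 of 4 measured myelin genes at least 1.5 times lower in both libraries and median ratios of 0.255 and 0.185. Dividing barcodes were 26.7% of those with none and 20.5% of those with 3 or more in WT-CNO, and 40.4% and 29.6% in DREADD-CNO. Depth before thinning moved with the number detected, from medians of 17285 to 25900.5 UMIs in WT-CNO and 17608 to 25906 in DREADD-CNO; the part of these in the levels was not tested.

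Across single thinned barcodes the cathepsins tracked each other most closely. Over 226 non-dividing microglia-marker barcodes of WT-CNO and 141 of DREADD-CNO, the Spearman correlation was 0.688 and 0.751 for Ctsb with Ctsd, 0.513 and 0.649 for Spp1 with Ctsd, 0.580 and 0.482 for Spp1 with Gpnmb, and 0.477 and 0.704 for Apoe with Ctsd. Lpl was looser, at 0.254 and 0.336 with Spp1. The barcodes of a library share their pool, dissociation and free RNA, and these values are descriptions. Of 2590 genes with a UMI in at least 10% of these barcodes, the 10 with the highest mean correlation with the sum of Spp1, Lpl, Gpnmb, Atp6v0d2 and Itgax were Ctsd (0.640), Ctsb (0.609), Fabp5 (0.590), Cd9 (0.572), Ctsz (0.569), Igf1 (0.568), Ctsl (0.564), Ftl1 (0.539), Cd63 (0.498) and Apoe (0.490). Apoe itself was most like Lyz2 (0.637), Selenop (0.595), Ctsb (0.594), Ctsd (0.590) and Itm2b (0.485). Within the P2ry12/Tmem119 gate, over 100 and 59 barcodes, Ctsd (0.527), Cd9 (0.511), Igf1 (0.485), Ctsb (0.482) and Apoe (0.474) came first.

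Dividing microglia-marker barcodes (at least 2 UMIs of Mki67 and Top2a) numbered 75 in WT-CNO (22.6% of the microglia-marker barcodes) and 80 in DREADD-CNO (33.8%), and they had less Apoe. In them Apoe was at 7215 CPM against 14535 in non-dividing barcodes of WT-CNO, and at 5374 against 9280 in DREADD-CNO, ratios of 0.496 and 0.579. Apoe, Itgax (0.444 and 0.457) and Atp6v0d2 (0.530 and 0.0653, the second from 3 against 53 UMIs) were the 3 of 10 genes called lower, where 1.30% of 6837 genes were; none was higher, where 8.29% were. Spp1 had ratios of 0.641 and 1.01, Gpnmb 0.318 and 0.838, Lpl 0.920 and 0.793, Cd68 0.806 and 0.805, Ctsb 0.810 and 0.722, Ctsd 0.767 and 0.765, and Trem2 0.739 and 0.745. The median log2 ratio was -0.41 over the 10 genes and 0.05 over all genes. Lower values were not particular to the 10 genes. They were found for 24 of 25 other lysosomal genes (median -0.36, 0 called) and 15 of 17 other lipid genes (-0.33, 3 called lower). The same held for 15 of 16 proton pump subunits (-0.22, 0 called) and 14 of 14 homeostatic genes (-0.17, 0 called). Atp6v0d2 in WT-CNO had 37 of its 46 UMIs of dividing barcodes in 1 barcode, and a ratio of 1.01 at most 5% mitochondrial UMIs. Spp1 in DREADD-CNO ranged from 0.171 to 1.31 over 10 alternatives.

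In the P2ry12/Tmem119 gate, Apoe was again lower in dividing barcodes, at ratios of 0.501 and 0.483 over 26 and 24 barcodes. It was the only one of 9 genes called, with 1.48% of 5489 genes lower and 5.57% higher. Spp1 had ratios of 1.47 in WT-CNO and 0.296 in DREADD-CNO, Gpnmb 1.48 and 0.266, and Itgax 1.14 and 0.155. The values of both libraries rest on few barcodes. Without the 2 barcodes richest in the gene in each group, Spp1 in WT-CNO was at 0.304, Itgax at 0.152 and Gpnmb at 0.835. In DREADD-CNO the dividing barcodes held 186 UMIs of Spp1 in 5 barcodes, 7 of Gpnmb in 1 and 5 of Itgax in 4. Markers of other cells moved with division among microglia-marker barcodes, where all 4 of 4 myelin genes were higher in dividing barcodes, such as Mbp (4.95 and 3.43). Without the C1q-high barcodes holding at least 3 UMIs of Pdgfra, Cspg4, Mag, Mog and Cldn5 together, Apoe had ratios of 0.471 and 0.477 in the P2ry12/Tmem119 gate and of 0.460 and 0.654 among microglia-marker barcodes, and Spp1 in the P2ry12/Tmem119 gate of WT-CNO had a ratio of 0.200.

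**Figure D4:**
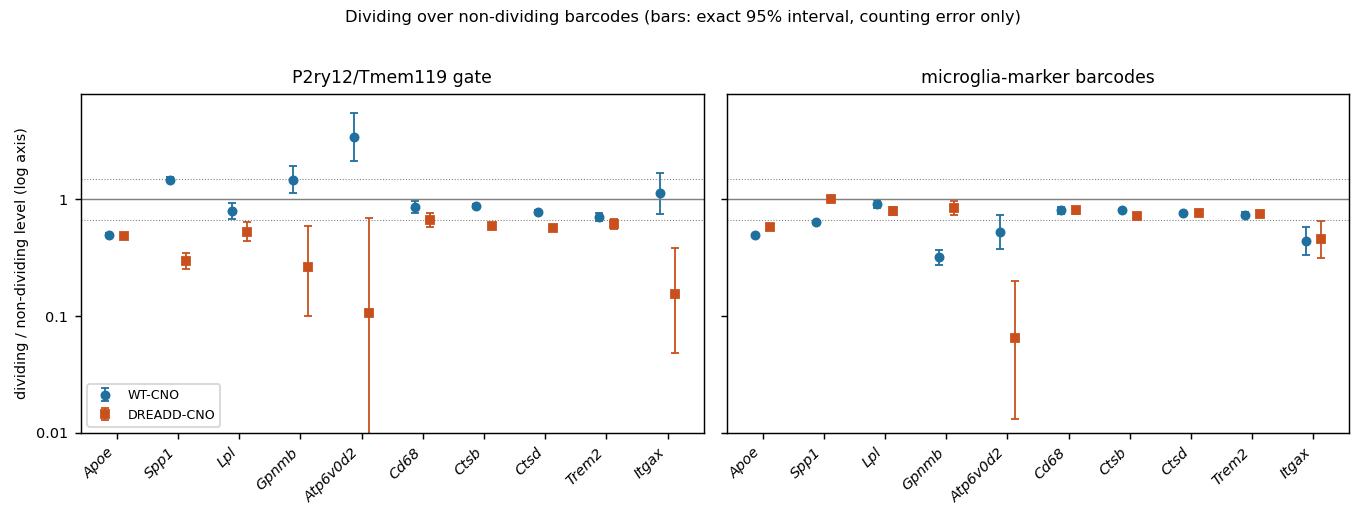
Ratio of the level in dividing to that in non-dividing barcodes (log axis) of the 10 genes, in the P2ry12/Tmem119 gate (left) and in microglia-marker barcodes (right), with exact 95% intervals of counting error. Circles are WT-CNO and squares DREADD-CNO; dotted lines mark 1.5 times in either direction, and the DREADD-CNO interval of Atp6v0d2 on the left, from 1 UMI in dividing barcodes, runs off the axis. Apoe lies between 0.483 and 0.579 in all 4 comparisons, while Spp1 and Gpnmb in the P2ry12/Tmem119 gate lie on opposite sides of 1 in the 2 libraries.

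Between the libraries, 4 of the 10 genes were lower in DREADD-CNO than in WT-CNO over the non-dividing microglia-marker barcodes, where 2.07% of 6824 genes were lower and 6.37% higher; none of the 10 was higher. Apoe was at 14535 CPM in WT-CNO and 9280 in DREADD-CNO, a ratio of 0.638 (0.629 to 0.648). Gpnmb was at 409 and 204, a ratio of 0.498 (0.449 to 0.551), Atp6v0d2 at 48.9 and 21.8 (0.446, 0.323 to 0.607), and Itgax at 83.9 and 47.8 (0.570, 0.457 to 0.706). These 4 differed beyond counting error, which does not include the spread between barcodes or pups. Spp1 had a ratio of 0.674 (5856 and 3945), Ctsb 0.788, Ctsd 0.795, Trem2 0.891, Cd68 0.928 and Lpl 1.02 (553 and 563). The median log2 ratio was -0.46 over the 10 genes and 0.05 over all genes. After thinning, 1 gene was called lower, Gpnmb, and Apoe had a ratio of 0.768.

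The mix of barcode groups moved with these values: the microglia-marker barcodes of the Pf4/Mrc1 gate, the richest in these genes, were 54 of 257 in WT-CNO and 26 of 157 in DREADD-CNO. Group by group the called genes differed. In the P2ry12/Tmem119 gate 2 of 9 genes were lower, Spp1 (0.385) and Gpnmb (0.431), where 2.62% of genes were lower and 5.14% higher. Between the gates 2 of 10 were lower, Apoe (0.509) and Itgax (0.431), where 3.61% were and 9.09% were higher; none of the 10 was higher. Apoe in the P2ry12/Tmem119 gate had a ratio of 0.682, Lpl 1.05, Cd68 1.06, Ctsb 0.758 and Ctsd 0.776. With the split by simple majority, Gpnmb in the P2ry12/Tmem119 gate turned to 1.39 and Apoe between the gates to 1.15.

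The pools differed in sex mix, and the same ratios were taken within each sex. Among 144 and 32 female microglia-marker barcodes, the DREADD-CNO over WT-CNO ratio was 0.663 for Apoe, 0.923 for Spp1, 0.980 for Gpnmb, 0.995 for Ctsb, 0.987 for Ctsd and 0.241 for Itgax, the last from 14 against 258 UMIs. Among 28 and 62 male barcodes it was 0.531 for Apoe, 0.756 for Spp1, 0.473 for Gpnmb, 0.677 for Ctsb, 0.738 for Ctsd and 1.08 for Itgax. A further 85 and 63 barcodes held transcripts of both sexes or of neither. In these the ratio was 0.465 for Apoe, 0.422 for Spp1, 0.396 for Gpnmb, 0.691 for Ctsb, 0.583 for Ctsd and 0.310 for Itgax. Atp6v0d2 had a ratio of 0.596 in female barcodes (20 against 149 UMIs) and of 0.964 in male ones (31 against 14). In the further barcodes it was at 0.0607, from 2 against 33 UMIs. Apoe was called lower in DREADD-CNO in both sexes, and Gpnmb, Itgax and Atp6v0d2 each in 1 of them. Over 10 alternatives the Apoe ratio in microglia-marker barcodes stayed between 0.531 and 0.768, while Gpnmb ranged from 0.472 to 1.04 and Itgax from 0.241 to 1.08. The highest Gpnmb ratio came at most 5% mitochondrial UMIs.

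**Figure D5:**
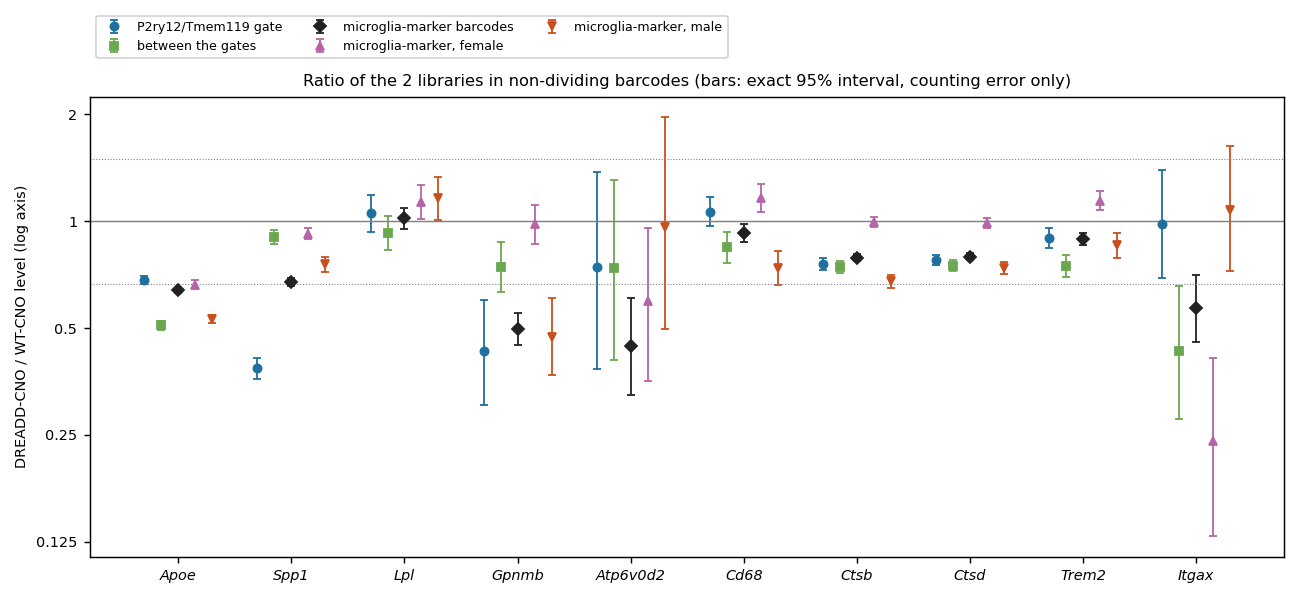
Ratio of the DREADD-CNO to the WT-CNO level (log axis) of the 10 genes in non-dividing barcodes of the P2ry12/Tmem119 gate, between the gates and with a majority of microglia markers, and in female and male microglia-marker barcodes, with exact 95% intervals of counting error. Dotted lines mark 1.5 times in either direction. Apoe lies below 1 in all 5 groups shown, from 0.509 to 0.682, while Lpl, Cd68 and Trem2 lie on both sides of 1.

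In the fixed Pf4/Mrc1 gate, 6 of 10 genes were lower in DREADD-CNO, where 3.86% of 6945 genes were, and none was higher, where 7.95% were. The 6 were Spp1 (0.377), Lpl (0.462), Gpnmb (0.193), Atp6v0d2 (0.144), Ctsd (0.585) and Itgax (0.230). The share of microglia-marker barcodes in that gate moved with them, from 34.5% to 17.1%. In border-marker barcodes alone 1 of 7 genes with enough UMIs was lower, Lpl (0.505), and none higher, where 2.89% and 8.01% of genes were. The microglia-marker barcodes of the same gate, 54 and 26, held like levels of Spp1 (12764 and 12329 CPM), Lpl (673 and 816) and Ctsd (8321 and 8404) in both libraries. In those barcodes Gpnmb (946 and 494), Itgax (141 and 72.6) and Atp6v0d2 (113 and 38.7) had the lower value in DREADD-CNO, as in the whole gate. How much of each ratio goes with the mixture was not tested.

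Dividing microglia-marker barcodes had 1 of 9 genes lower in DREADD-CNO, Itgax (0.587), and none higher, where 3.54% and 5.50% of 7279 genes were. Apoe was at 0.745, Spp1 at 1.06 and Gpnmb at 1.31. The last 2 rest on few barcodes: 4 in WT-CNO and 3 in DREADD-CNO held at least 50% of the Spp1 UMIs, and 6 and 4 those of Gpnmb. In the dividing P2ry12/Tmem119 gate, 26 and 24 barcodes, 5 of 8 were lower: Apoe (0.659), Spp1 (0.0775), Gpnmb (0.0776), Ctsb (0.517) and Ctsd (0.557). None was higher, and of 4635 genes 7.75% were lower and 6.82% higher. The WT-CNO levels of Spp1 and Gpnmb there include the rich barcodes described above, and the DREADD-CNO UMIs came from 5 barcodes and 1 barcode.

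Lists of related genes were also compared between the libraries over the non-dividing microglia-marker barcodes. Of 18 disease-associated microglia genes 6 were lower in DREADD-CNO, among them Axl (0.338), a receptor for phosphatidylserine bridging proteins, and Cst7 (0.466), a cathepsin inhibitor, with a median log2 ratio of -0.34. Of 17 other lipid genes 3 were lower, among them Cd36 (0.147) and Scarb1 (0.554), a lipoprotein receptor. Cd36 was also near the limit, at 22.5 CPM in WT-CNO and 3.30 in DREADD-CNO. It went the other way in dividing microglia-marker barcodes, at 2.26 and 53.7, and was called higher there (23.8). None of 25 other lysosomal genes was called, with Ctsa at 0.780 and Psap at 0.789 and a median of -0.18, and none of 16 proton pump subunits, with a median of -0.05. Homeostatic genes had a median of -0.08 with 0 of 14 called. Lower values were not particular to the 10 genes. They were found for 17 of 18 disease-associated, 16 of 17 lipid and 23 of 25 lysosomal genes. The same held for 19 of 19 other phagocytosis genes (2 called lower), 12 of 16 proton pump subunits and 11 of 14 homeostatic genes. Of all 6824 genes compared, 2907 had lower values. Myelin genes went the other way, with 2 of 3 higher, among them Mbp (2.09), and the summed OPC markers were 539 CPM in WT-CNO and 998 in DREADD-CNO. The part of this RNA of other cells in the ratios of the 10 genes was not tested.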

How the data were processed

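The authors deposited 2 filtered matrices of raw counts (UMIs per gene and barcode), 1 per library, made with Cell Ranger 7.1.0 per the submitters' processing notes; the genome build is not given in the sources used here. Total UMIs were 78794300 in WT-CNO (6252 barcodes) and 108912581 in DREADD-CNO (6754 barcodes). Groups were taken from the sample titles, with 1 sample each. The 10 genes and all gene lists were chosen with earlier results of these data known.

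Barcodes with at least 500 genes and at most 10% mitochondrial UMIs were kept. C1q-high meant at least 5 UMIs and at least 10 per 10000 UMIs of C1qa, C1qb and C1qc. A gate meant at least 2 UMIs and at least 2 times those of the other pair, and dividing meant at least 2 UMIs of Mki67 and Top2a. The microglia-marker and border-marker barcodes, by the majority of 8 microglia markers (Cx3cr1, Sall1, Siglech, Fcrls, Gpr34, Olfml3, P2ry13 and a gene not reported here) against the 8 border markers Lyve1, Cd163, F13a1, Ms4a7, Cbr2, Stab1, Cd209f and Folr2, were defined after the data were seen. OPC-like barcodes had under 1 C1q UMI per 10000, at least 3 UMIs of Pdgfra and Cspg4 and fewer than 3 of Mag and Mog. Female barcodes held Xist and none of 4 Y-linked genes, male ones the reverse.

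UMIs were summed per library and group and given per 1000000 (CPM), with exact Poisson intervals and exact ratio intervals at 95% (counting error only). Shares used exact Clopper-Pearson intervals. For joint detection each barcode was thinned to 1987 UMIs, the 10th percentile of C1q-high barcodes, which left out 44 in WT-CNO and 47 in DREADD-CNO. No barcode was removed as a doublet: Scrublet's automatic cut marked 0 and 5 barcodes and did not work, and the 168 and 206 highest scores were left out only as an alternative. All 10 genes were named, and from each related list the 2 most abundant and the 2 with the largest ratio were eligible for naming; genes named along the number of detected genes were chosen after their values were seen. Scripts ran in Python 3.11.15 with numpy 2.4.6, scipy 1.17.1, pandas 2.3.3, scanpy 1.11.5 and matplotlib 3.10.9, and edgeR 4.0.16 in R 4.3.3 gave TMM factors only. The ratio code was tested on simulated Poisson counts, which hold no spread between barcodes. Alternatives covered the C1q, gate, division, mitochondrial and gene number limits, doublets, scaling, low counts, thinning and sex.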

Additional observations from a re-analysis of the deposited data

How the results depend on the processing

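No paired analysis was possible because each group was 1 library. Of 1923 values of the 10 genes under alternatives, 1681 kept their side of the limit. Of the others, 110 fell below it, 92 passed it and 40 turned. A value not called in either setting counted as kept even where its ratio crossed 1. Cd68 in the Pf4/Mrc1 gate over the P2ry12/Tmem119 gate of DREADD-CNO, for example, ranged from 0.889 to 1.41. Another scaling moved the median of all genes by up to 0.15 (log2), between the libraries between the gates. In what follows, P2 and Pf4 stand for the P2ry12/Tmem119 and Pf4/Mrc1 gates, and D/W for DREADD-CNO over WT-CNO; the cause was not tested unless fewer barcodes or UMIs follow from the setting. With the split by simple majority of at least 1 UMI, Pf4 over P2 had 0 genes lower, Gpnmb there was 0.611 in DREADD-CNO, dividing P2 had 2 lower with Itgax at 0.664 in WT-CNO, D/W of Gpnmb in P2 was 1.39, D/W between the gates had 1 higher and 1 lower with Apoe at 1.15 and Lpl at 1.64, and P2 held 36.8% and 31.4% of C1q-high barcodes. With at least 4 times the other pair, Pf4 over P2 had 3 lower, dividing P2 2 lower, D/W in P2 1 higher and 1 lower with Itgax at 2.22, D/W between the gates 5 lower, and P2 held 18.8% and 10.3%. With division at 1 UMI, Pf4 over P2 had 2 lower and 30.8% of P2 in WT-CNO divided. At 4 UMIs 13.1% and 18.6% of P2 divided, border-marker over microglia-marker barcodes had 1 higher, and D/W in border-marker barcodes had 2 lower. At most 5% mitochondrial UMIs, Pf4 over P2 had 1 higher and 3 lower (WT-CNO Spp1 0.833, Atp6v0d2 0.791, Itgax 0.313), dividing P2 3 lower, D/W 6 lower in P2, 1 between the gates and 3 in Pf4, C1q-high barcodes were 12.3% in WT-CNO, border-marker over microglia-marker had 1 higher and 5 lower, and D/W in border-marker barcodes had 1 higher and 0 lower with Spp1 at 1.70; among dividing microglia-marker barcodes Atp6v0d2 was 1.01 in WT-CNO and Spp1 0.664 in DREADD-CNO, and D/W of Gpnmb in microglia-marker barcodes was 1.04. Without barcodes holding at least 3 UMIs of other lineage markers, dividing P2 had 4 lower (WT-CNO Spp1 0.200, Atp6v0d2 0, Itgax 0.116), C1q-high barcodes were 9.94% and 7.75%, and D/W in border-marker barcodes had 1 higher and 0 lower with Spp1 at 1.505. With TMM and with median-of-ratios factors, Pf4 over P2 had 0 lower and dividing P2 2 lower, and D/W in border-marker barcodes had 2 lower with the second. Thinned, Atp6v0d2 in dividing P2 of WT-CNO was 0.962, D/W had 1 lower in P2, 1 between the gates, 3 in Pf4, 1 in microglia-marker and 0 in border-marker barcodes, border-marker over microglia-marker had 1 higher and 4 lower, and dividing microglia-marker barcodes had 1 lower. In female barcodes D/W had 4 lower in P2 and 1 higher between the gates with Spp1 at 1.70, border-marker over microglia-marker had 1 higher, and Spp1 in dividing microglia-marker barcodes of DREADD-CNO was 0.171. In male barcodes D/W had 4 lower between the gates with Itgax at 1.11, Atp6v0d2 at 1.60 in Pf4, 2 lower in microglia-marker barcodes with Itgax at 1.08, and 1 higher and 0 lower in border-marker barcodes with Spp1 at 1.58; border-marker over microglia-marker had 5 lower, and dividing microglia-marker barcodes 1 lower with Gpnmb at 1.94 in DREADD-CNO. With equal gate shares, D/W had 5 lower. The split by the other markers, added after the data were seen, gave 0 higher and 8 lower for Pf4 over P2 (Spp1 0.0759 and 0.0762, Gpnmb 0.0140 and 0.0168, WT-CNO Atp6v0d2 0.117 and Itgax 0.0227), 3 lower for dividing (Spp1 0.641 and 1.01, WT-CNO Gpnmb 0.318, Atp6v0d2 0.530 and Itgax 0.444), and D/W 4 lower on the P2 side and 1 on the Pf4 side with Itgax at 1.79. Without the 2 richest barcodes for each gene, also added, Pf4 over P2 had 2 lower, dividing P2 3 lower (WT-CNO Spp1 0.304, Atp6v0d2 0, Itgax 0.152) and D/W in border-marker barcodes 2 lower. Depth limits Atp6v0d2 and Itgax most, with under 400 UMIs each in the non-dividing microglia-marker barcodes of a library.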
